A study of Mus musculus with 11 samples.

Results

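The core histones H2A, H2B, H3 and H4 and the linker histone H1 are encoded in the mouse by clustered replication genes and by a smaller number of variant genes outside the clusters. Members here are every gene whose GRCm38 symbol begins with Hist1h, Hist2h, Hist3h or Hist4h (70 symbols) and 10 variants, namely H2afx, H2afy, H2afy2, H2afz, H2afv, H2afj, H3f3a, H3f3b, H1f0 and H1fx. Of these 80 symbols, 78 had a row in the count tables, 68 replication genes and the 10 variants, out of 48709 gene IDs in all. Hist1h2bm and Hist1h2bh were not analysed here.

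The libraries came from primary mouse hippocampal neurons, cells taken from the hippocampus and cultured for 10 days at 20% oxygen. In the hypoxia group, neurons were then held at 1% oxygen for 4 h (5 libraries), and in the control group neurons of the same isolation stayed at 20% oxygen (6 libraries). Polyadenylated RNA was turned into libraries with a TruSeq RNA v2 kit, which does not mark strand, and read as single ends of 50 bases. The labels do not say whether the libraries of a group are separate dishes, so p-values measure the spread between these libraries, which may be technical.

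Most mammalian mRNAs end in a poly(A) tail. Replication histone mRNAs are the known exception: they are made during DNA replication, mostly lack introns and are cut just after a conserved stem-loop, which is bound by the stem-loop binding protein (SLBP). Variant histone genes are transcribed outside S phase as well, and their mRNAs are polyadenylated in the ordinary way. Some replication genes also have a poly(A) signal farther downstream, and polyadenylated histone mRNAs from such genes are known from differentiated, non-dividing cells. A library of polyadenylated RNA is therefore made to count the polyadenylated transcripts of a replication gene, and not those that end at the stem-loop. Counts per gene hold no read positions, so whether some transcripts ending at the stem-loop were carried over was not tested.

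Total counts ran from 16619493 in control 1 to 31917157 in hypoxia 5. Levels are given as CPM, counts per 1000000 counts with library sizes scaled by TMM (trimmed mean of M values). A count of 3, taken as the limit that a count of 0 allows, equals 0.0941 to 0.180 CPM across libraries, and this limit covers counting error only. Summed markers of excitatory neurons came to 7745 CPM in hypoxia and 7752 CPM in control, those of interneurons to 783 CPM in hypoxia and 777 CPM in control, and those of astrocytes to 3856 CPM in hypoxia and 3900 CPM in control. Those of fibroblasts and meninges came to 283 CPM in hypoxia and 260 CPM in control, so the cultures labelled as neurons held RNA of other cell types. Sums were smaller for microglia (20.0 CPM in hypoxia, 19.6 CPM in control) and for endothelial and mural cells (47.9 CPM in hypoxia, 44.5 CPM in control). The largest microglia markers were Aif1 (8.43 CPM over all libraries) and Csf1r (4.70 CPM), while Trem2 (0.0814 CPM) lay below the limit. Kdr (22.2 CPM) and Pdgfrb (17.7 CPM) were the largest endothelial and mural markers, while Cldn5 (0.0394 CPM) lay below the limit. These 2 sums alone therefore do not establish microglia or endothelial cells.

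The sequences that bear on polyadenylation stand first. The stem-loop was searched as the first arm GGCNCT, the loop TTTN and the second arm AGNGCC joined without gaps, where N is any base, on the sense strand of GENCODE M21 transcripts of GRCm38. It was found in 47 of 58797 protein-coding transcripts (0.08%), which belong to 45 genes, and 43 of those genes are members. In the lines below the 16 bases that match are in capitals, for 7 replication genes that were abundant enough to test and for the variant H2afx. They are shown because they are the element at which these mRNAs are normally cut.

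Hist3h2a: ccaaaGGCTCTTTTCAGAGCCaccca
Hist3h2ba: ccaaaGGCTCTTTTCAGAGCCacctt
Hist1h1c: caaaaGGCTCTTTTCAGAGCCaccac
Hist1h2be: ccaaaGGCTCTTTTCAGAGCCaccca
Hist2h3c2: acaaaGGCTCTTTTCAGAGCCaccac
Hist2h4: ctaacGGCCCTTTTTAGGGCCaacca
Hist1h4i: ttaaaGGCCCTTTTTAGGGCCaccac
H2afx: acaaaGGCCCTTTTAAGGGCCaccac

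Hist1h1c, Hist1h2be, Hist2h3c2, Hist3h2a and Hist3h2ba carried one form of the element, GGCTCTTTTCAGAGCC, which 24 replication genes in the tables share. The H4 genes Hist2h4 and Hist1h4i carried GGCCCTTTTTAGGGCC, a form found in no other replication gene of the tables. A related form, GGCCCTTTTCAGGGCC, was present in 7 replication genes, all of them H4 genes and none abundant enough to test. H2afx, the variant with a stem-loop, is known to give both stem-loop and polyadenylated mRNAs. The search found no match in the transcripts of Hist2h2be or Hist1h2bc, which says only that these letters are not there.

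The second set shows the poly(A) signal near the end of the transcript, in capitals with flanking bases that stop short of the end, for the genes called lower in hypoxia and for 4 replication genes in which it follows the stem-loop. The signal was searched as AATAAA or ATTAAA in the last 60 bases of protein-coding transcripts on the sense strand. It was present in 51.0% of all 58797 such transcripts.

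Hist2h2be: tattattattAATAAAgttaccgattagtt
Hist3h2a: gtatatgcccAATAAAataagagtacgtgt
Hist3h2ba: taatggtattAATAAAtttggttcaatttt
Hist1h1c: gtatgcttctAATAAAaagcgtttagtttt
Hist2h4: gtatacataaAATAAAatcttaaaaacaac
H2afj: aaaaaggacaAATAAAgaatatattacaaa
H2afx: ggctaattttATTAAAggatcgtttggttt
H1f0: aaaactttaaAATAAAactggaaaggaaaa

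In Hist3h2a, the annotated transcript runs on for 1643 bases after the stem-loop and ends 28 bases after the poly(A) signal shown. In Hist1h1c it runs on for 840 bases and in Hist2h4 for 1257 bases, while in Hist3h2ba it runs on for 169 bases. These transcripts hold the stem-loop and, downstream of it, the signal of an ordinary mRNA.

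Few replication genes were seen in polyadenylated RNA. A gene was tested when it had at least 10 counts in at least 5 libraries, a filter that 9 of the 68 replication genes and all 10 variants passed. Of the other replication genes, 22 had 0 counts in all 11 libraries and 37 had some counts. The 9 tested genes held 17762 of the 18163 counts of all replication genes (97.8%), while the 10 variants held 109337 counts. The counts thinned out sharply at the filter: the tested genes with the fewest counts were Hist2h3c2 with 239 and Hist1h4i with 281, and just below the filter stood Hist1h2bg and Hist3h2bb-ps with 42 each, Hist2h2ac with 38 and Hist1h1e with 37 over all libraries.

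By histone, 1 of 6 H1 genes was tested (Hist1h1c), 1 of 20 H2A genes (Hist3h2a), 4 of 17 H2B genes (Hist3h2ba, Hist1h2bc, Hist2h2be and Hist1h2be), 1 of 12 H3 genes (Hist2h3c2) and 2 of 13 H4 genes (Hist2h4 and Hist1h4i). By cluster, 4 of 54 Hist1 genes were tested, 3 of 10 Hist2 genes, 2 of 3 Hist3 genes and 0 of 1 Hist4 gene. The small Hist3 cluster on chromosome 11 held 9632 of the counts, against 6351 in the large Hist1 cluster. There the H2B gene Hist3h2ba lies at chr11:58948920-58949533 and the H2A gene Hist3h2a at chr11:58954685-58956830, both on the plus strand and both of 1 exon (GRCm38), with the third member, Hist3h2bb-ps, between them on the minus strand.

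The tested genes also differed from the others in their annotated transcripts. The filter did not use the annotation, but raw counts can rise with transcript length, so these contrasts are not independent of the filter. All 7 of the tested genes with a stem-loop had more than 100 annotated bases after it (169 to 1861, median 840), against 13 of the 33 untested genes with a stem-loop (median 46). A poly(A) signal stood near the end in 7 of the 9 tested genes and in 10 of the 59 untested genes. The untested pseudogenes Hist1h2aj, Hist1h2al and Hist3h2bb-ps could not score, because only protein-coding transcripts were searched. A signal also cannot be found where the annotated transcript stops short of it, so this contrast is partly set by the annotation. Merged exons had a median length of 1560 bases in the tested genes and 488 bases in the untested genes. These are descriptions of the annotation, with no test.

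Near-identical copies and overlapping genes limit what the low counts can say. For each gene, the share of 50-base stretches found in no other gene's transcripts was computed, 50 bases being the read length. Matches on either strand counted, so a gene that overlaps at the same place lowers the share as a copy elsewhere does. Hist2h2bb, for example, had a share of 0.0% and shared only with Gm20628 and Gm42743, which overlap its exons. The median share was 77.9% in the 9 tested genes and 39.6% in the 59 untested genes. Of the 22 genes without counts, 19 had less than 50% of such stretches to themselves. How reads that match several places were counted is not given in the sources used here, so the counts of these genes are uncertain, and the part of shared sequence in them was not tested. Low counts were also found where the sequence is unique. The 5 untested genes with at least 90% of their stretches to themselves had at most 24 counts over all libraries: Hist1h1a had 24, Hist1h1d had 17, Hist4h4 had 10, Hist1h1b had 7 and Hist1h1t, a testis H1, had 1.

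**Figure D1:**
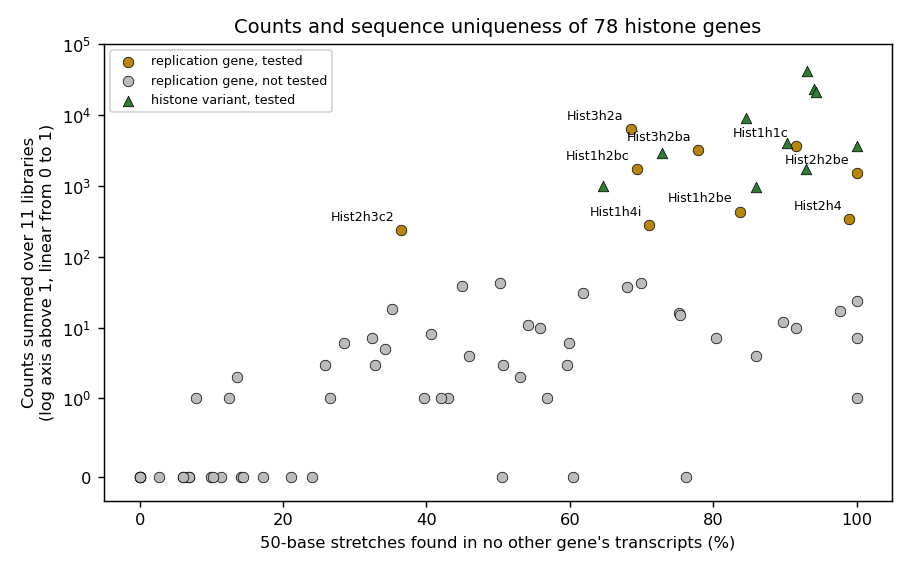
Counts summed over the 11 libraries (vertical, log scale above 1) against the percentage of 50-base stretches found in no other gene's transcripts (horizontal), 1 point per gene for 9 tested and 59 untested replication genes and 10 variants. The tested replication genes sit at 239 counts or more and the untested ones at 42 or fewer, and the tested gene with the smallest unique share is Hist2h3c2 (36.5%).

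Per kilobase of merged exons, the H3.3 gene H3f3b stood highest, at 49.5 ± 3.04 CPM per kb in hypoxia and 46.5 ± 1.76 CPM per kb in control (SD, n = 5 and 6). The linker histone variant H1f0 came next, at 33.5 ± 0.837 CPM per kb in hypoxia and 36.3 ± 1.80 CPM per kb in control. The most abundant replication gene was Hist3h2ba, at 17.0 ± 1.33 in hypoxia and 17.7 ± 3.12 CPM per kb in control. In the control libraries the order below it was H2afy2, H2afy, Hist3h2a, H2afx, Hist1h1c, H2afv, Hist1h2bc, H2afj, H1fx, H3f3a, Hist2h2be, H2afz, Hist1h4i, Hist2h3c2, Hist2h4 and Hist1h2be, which ended the list at 0.325 ± 0.0262 CPM per kb. Of the 18 pairs of neighbours in this order, 13 overlapped in their control libraries. The pairs that did not overlap were H3f3b and H1f0, H1f0 and Hist3h2ba, Hist1h2bc and H2afj, H2afz and Hist1h4i, and Hist2h4 and Hist1h2be. The order is not corrected for shared sequence, which may lower some counts. The unique share of 50-base stretches was 36.5% in Hist2h3c2, 64.6% in H2afz and 72.9% in H3f3a. Merging also matters: the merged exons of Hist1h2be span 4446 bases, while its transcript with the poly(A) signal has 2506.

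The comparison of hypoxia with control asks which histone transcripts differ after a short period of low oxygen. Among the 9 tested replication genes, 1 was lower in hypoxia (the H2B gene Hist2h2be) and 0 were higher. Hist2h2be counts as a replication gene here by its symbol alone. No stem-loop match was found in its transcripts, a poly(A) signal stands near its end, and whether its expression depends on replication was not tested. Among the 10 variants, 3 were lower (H2afj, H2afx and H1f0) and 0 were higher. The test was edgeR's quasi-likelihood test over all 16319 genes that passed the filter, and a change was called when the p after Benjamini-Hochberg adjustment was below 0.05. Of all genes tested, 12.8% were lower and 10.2% were higher (23.0% in either direction), so 1 of 9 lower replication genes is near the background share. At an unadjusted p under 0.05, 2 replication genes and 4 variants were lower and 0 of either were higher by the same tool, beside 19.5% lower and 15.4% higher of all genes tested at that threshold. DESeq2, run here on the same counts, also called 0 members higher, and it called 3 lower. The authors' deposited tables differ in this, as they list H3f3a as higher in hypoxia. The number of lower replication genes was 2 without control 6, hypoxia 1 or hypoxia 3, and the number of lower variants was 1 without control 4 or hypoxia 4. The groups did not overlap in 3 of the 19 tested members, against 14.0% of all genes tested. The median log2 fold change was -0.13 over the 9 replication genes and -0.09 over the 10 variants, against -0.02 over all genes tested.

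Hist2h2be encodes an H2B and lies at chr3:96221119-96223738 on the plus strand (GRCm38), as 1 exon of 2620 bases of which all 50-base stretches were unique. Its level in hypoxia libraries 1 to 5 was 4.10, 4.19, 3.78, 3.88 and 4.46 CPM, against 5.53 CPM in the lowest, 6.004 CPM at the median and 7.38 CPM in the highest of the 6 control libraries. Every hypoxia library lay below every control library, a pattern that 7.26% of all genes tested showed. The mean was 4.08 ± 0.265 CPM in hypoxia and 6.13 ± 0.670 CPM in control (SD, n = 5 and 6), a log2 fold change of -0.58 (SE 0.09, edgeR adjusted p = 0.000232), or 0.668 times the control level. In the authors' deposited table of genes lower in hypoxia it stood at a log2 fold change of -0.57 with an adjusted p of 9.89e-06. The call held in all 18 alternative analyses.

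The other H2B genes did not pass the test. Hist3h2ba had 10.4, 9.96, 9.94, 10.0 and 11.9 CPM in the hypoxia libraries, inside the control range of 8.50 to 13.8 CPM (median 11.1), with a log2 fold change of -0.07 (SE 0.10, edgeR adjusted p = 0.688). Hist1h2bc averaged 5.58 ± 1.00 CPM in hypoxia and 6.40 ± 1.58 CPM in control (SD, n = 5 and 6), and the control mean includes 9.52 CPM in control 1, above the 5.29 to 6.46 CPM of the other controls. Its log2 fold change was -0.18 (SE 0.15, edgeR adjusted p = 0.426). Hist1h2bc and Hist1h2be are annotated with 2 exons each. Hist1h2be, whose exons overlap those of Hist1h1e, averaged 1.55 ± 0.407 CPM in hypoxia and 1.45 ± 0.116 CPM in control (edgeR adjusted p = 0.746).

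Summed over the 17 H2B genes, the level was 22.1 ± 0.485 CPM in hypoxia and 25.4 ± 1.32 CPM in control, and the groups did not overlap. Without Hist2h2be the H2B sum was 18.03 ± 0.663 CPM in hypoxia and 19.3 ± 1.64 CPM in control, and the groups overlapped. The groups overlapped in the sums for H1 (12.7 ± 1.88 CPM in hypoxia, 12.7 ± 1.71 CPM in control), H2A (19.3 to 24.4 CPM in hypoxia, 21.8 to 26.1 CPM in control), H3 (0.862 ± 0.271 CPM in hypoxia, 0.980 ± 0.380 CPM in control) and H4 (2.20 ± 0.390 CPM in hypoxia, 2.51 ± 0.501 CPM in control). All 68 replication genes together came to 58.9 ± 4.46 CPM in hypoxia and 64.8 ± 4.08 CPM in control, also with overlap. These sums are descriptions and carry no test. The 59 untested genes made up 1.19 ± 0.223 CPM of the total in hypoxia and 1.53 ± 0.411 CPM in control.

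**Figure D2:**
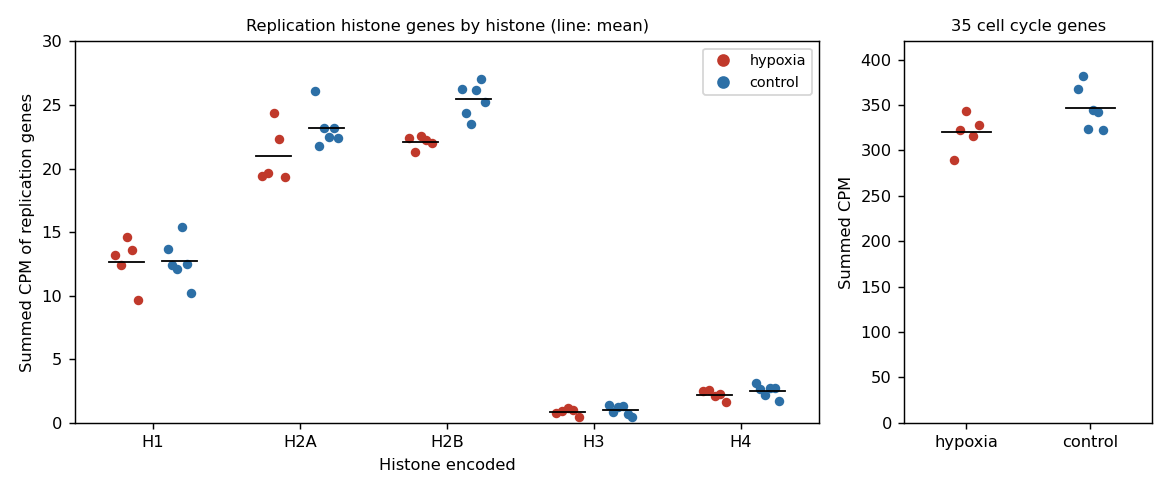
Left, summed CPM of the replication genes of each histone in 5 hypoxia and 6 control libraries, 1 point per library with the mean as a line; right, the summed CPM of 35 cell cycle genes on the same plan. H2B is the histone whose groups do not overlap, at 22.1 CPM in hypoxia and 25.4 CPM in control on average. Without Hist2h2be, which was called lower on its own, the H2B groups overlap.

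Among the remaining core histone genes, Hist3h2a, the one H2A gene tested, had 19.2, 19.5, 24.3, 22.1 and 19.1 CPM in hypoxia libraries 1 to 5, against a control range of 21.6 to 25.6 CPM (median 22.5). Hypoxia libraries 1, 2 and 5 lay below every control and libraries 3 and 4 lay within the control range. The log2 fold change was -0.13 (SE 0.07, edgeR adjusted p = 0.186), and without hypoxia 3 it was -0.19 with an adjusted p of 0.0413. Exons of Hist3h2a overlap those of Trim17 on the same strand and of Gm44313 on the other strand, so its reads cannot be assigned to it alone.

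The H4 gene Hist2h4 had 1.23, 0.981, 0.885, 0.808 and 0.847 CPM in the hypoxia libraries, against 0.871 CPM in the lowest, 1.40 CPM at the median and 1.86 CPM in the highest control. The groups overlapped, and the log2 fold change of -0.51 (SE 0.19) had an edgeR adjusted p of 0.0683, which became 0.0221 without control 6 and 0.0461 without hypoxia 1. The other tested H4 gene, Hist1h4i, averaged 1.07 ± 0.261 CPM in hypoxia and 0.895 ± 0.184 CPM in control (SD, n = 5 and 6), a log2 fold change of 0.27 (SE 0.20, edgeR adjusted p = 0.374). The H3 gene Hist2h3c2, with 36.5% of its 50-base stretches to itself, averaged 0.731 ± 0.235 CPM in hypoxia and 0.914 ± 0.360 CPM in control (edgeR adjusted p = 0.486).

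Hist1h1c encodes a linker histone and was the one replication H1 gene tested. It had 12.5, 12.4, 14.4, 13.3 and 9.44 CPM in the hypoxia libraries, against 10.1 CPM in the lowest, 12.1 CPM at the median and 14.9 CPM in the highest control. The groups overlapped, both averaged 12.4 CPM, and the edgeR adjusted p was 0.993. Its log2 fold change lay between -0.06 and 0.08 over all alternative analyses and changed sign among them.

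**Figure D3:**
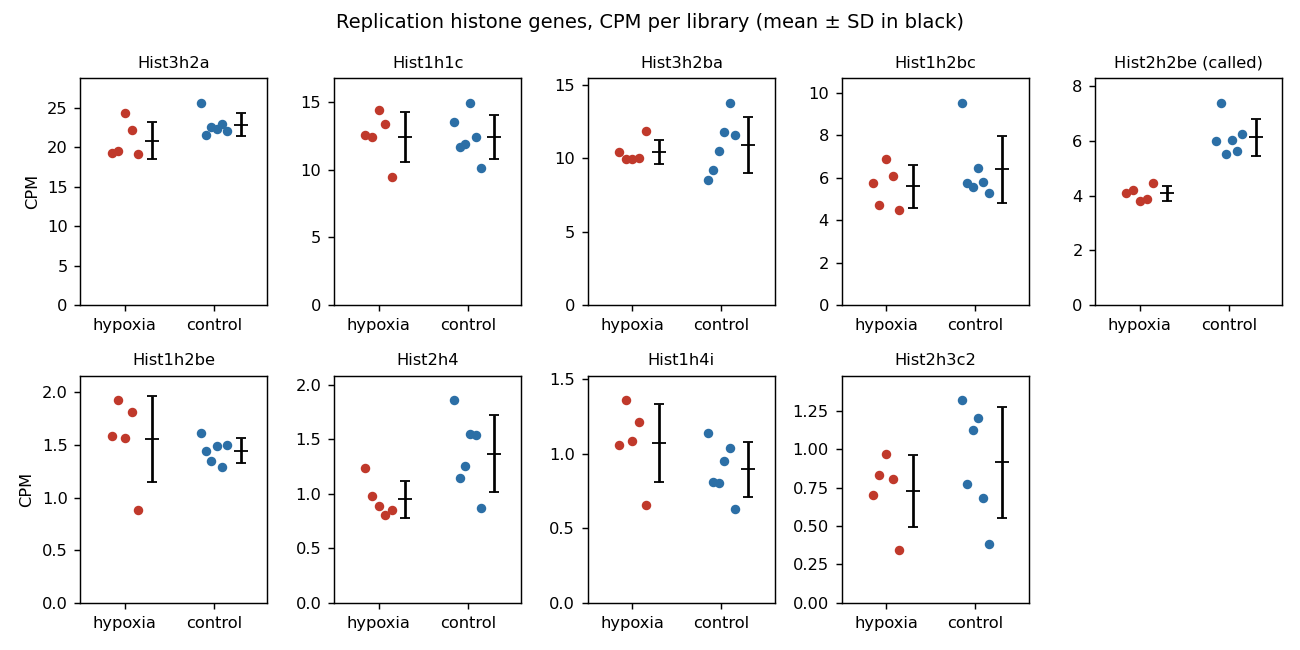
CPM (vertical, from 0) of the 9 tested replication genes in 5 hypoxia and 6 control libraries, 1 point per library, with mean and SD in black. In Hist2h2be all hypoxia libraries (3.78 to 4.46 CPM) lie below all controls (5.53 to 7.38 CPM), while in the other 8 genes the groups overlap.

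Of the variants, H2afj and H2afx, both of the H2A family, fell with no overlap between the groups. H2afj encodes H2A.J, at chr6:136808244-136810074 on the plus strand (GRCm38). It had 5.68, 4.26, 4.63, 5.01 and 5.05 CPM in hypoxia libraries 1 to 5, against 6.24 CPM in the lowest, 6.49 CPM at the median and 6.76 CPM in the highest control. The control libraries lay close together and all above the hypoxia libraries. The mean was 4.93 ± 0.529 CPM in hypoxia and 6.496 ± 0.205 CPM in control (SD, n = 5 and 6), a log2 fold change of -0.40 (SE 0.08, edgeR adjusted p = 0.00174), and the call held in all 18 alternatives. The authors' deposited table gives it a log2 fold change of -0.39 with an adjusted p of 0.00102. Exons of Gm44364 overlap it on the other strand, and without strand their reads cannot be told apart.

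H2afx encodes H2A.X, whose phosphorylated form marks DNA breaks, and lies at chr9:44334694-44336077 on the plus strand (GRCm38). It had 11.7, 13.1, 11.95, 11.1 and 12.9 CPM in the hypoxia libraries, against 13.2 CPM in the lowest, 13.99 CPM at the median and 16.0 CPM in the highest control. The groups did not overlap, but hypoxia 2 and control 2 were nearly level. The log2 fold change was -0.24 (SE 0.07, edgeR adjusted p = 0.0203). Leaving out control 4 gave an adjusted p of 0.0620, and leaving out hypoxia 4 gave 0.0591, so the call was lost in both cases. The authors' deposited table lists H2afx as lower, at -0.22 with an adjusted p of 0.0245. Gm44335 overlaps its exons on the other strand.

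H1f0 encodes H1.0, a linker histone that is known to build up in differentiated cells. It had 67.0, 68.2, 71.4, 69.7 and 67.8 CPM in the hypoxia libraries, against 69.7 CPM in the lowest, 74.5 CPM at the median and 80.5 CPM in the highest control, and the groups overlapped. The log2 fold change of -0.12 (SE 0.04) passed at an edgeR adjusted p of 0.0444. The adjusted p ran from 0.0231 to 0.165 over the 18 alternatives, and the call was lost in 13 of them, among them the removal of any one of control 1 to 5 or hypoxia 1, 2, 4 or 5. H1f0 is in neither of the authors' deposited tables. Exons of Gm49544 overlap it on the other strand.

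The other linker variant, H1fx, whose exons overlap Gm47286 on the same strand and Gm5577 on the other, was scattered. It had 3.08, 2.04, 2.29, 2.10 and 3.45 CPM in the hypoxia libraries, against 1.92 CPM in control 1 and 5.50 CPM in control 6 as the lowest and highest controls, with a control median of 3.59 CPM. The log2 fold change of -0.53 (SE 0.22) had an edgeR adjusted p of 0.102, and without control 1 it was -0.63 with an adjusted p of 0.0273.

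H3f3a and H3f3b encode the same protein, H3.3, the H3 that is deposited in chromatin independently of replication. H3f3b had 137, 143, 150, 146 and 161 CPM in the hypoxia libraries, against 133 CPM in the lowest, 137 CPM at the median and 148 CPM in the highest control, with a log2 fold change of 0.09 (SE 0.04, edgeR adjusted p = 0.144). H3f3a had 9.91, 10.6, 9.58, 10.1 and 11.9 CPM in the hypoxia libraries, against 6.53 CPM in control 1 and 9.16 to 10.4 CPM in the other controls. Its log2 fold change was 0.16 (SE 0.10, edgeR adjusted p = 0.246), and in the authors' deposited table of genes higher in hypoxia it stood at 0.23 with an adjusted p of 0.0207. H3f3a overlaps Gm17275 and H3f3aos on the other strand, and 72.9% of its 50-base stretches were found in no other gene. The H3.3 pair together came to 158 ± 9.71 CPM in hypoxia and 148 ± 5.53 CPM in control, with overlap.

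The H2A.Z genes H2afz and H2afv, which mark promoters and enhancers, did not pass the test. H2afz averaged 3.21 ± 0.661 CPM in hypoxia and 3.57 ± 0.349 CPM in control (SD, n = 5 and 6; edgeR adjusted p = 0.380), and H2afv 12.04 ± 0.872 CPM in hypoxia and 12.7 ± 0.618 CPM in control (edgeR adjusted p = 0.464). The macroH2A genes H2afy and H2afy2, whose proteins carry a large extra domain, gave log2 fold changes of -0.06 (SE 0.03, edgeR adjusted p = 0.206) and -0.04 (SE 0.07, edgeR adjusted p = 0.723). H2afy ranged over 74.3 to 77.6 CPM in hypoxia and 77.3 to 82.4 CPM in control.

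**Figure D4:**
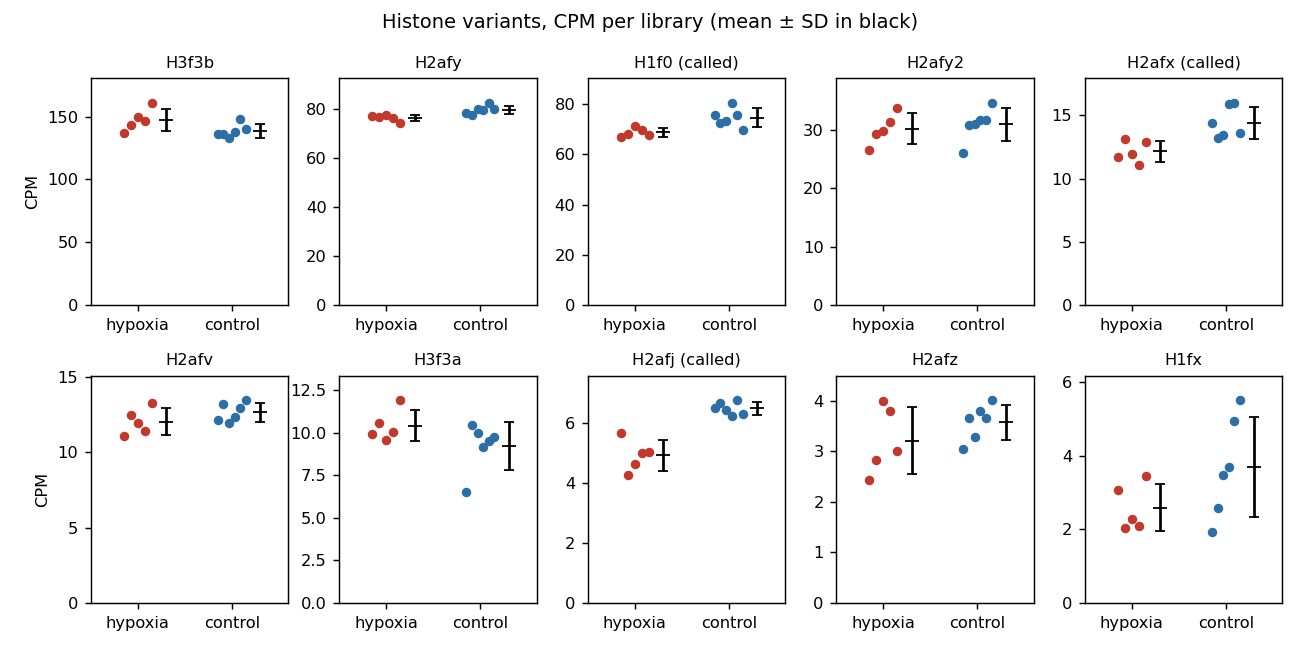
CPM (vertical, from 0) of the 10 histone variants in 5 hypoxia and 6 control libraries, 1 point per library, with mean and SD in black. H2afj (4.26 to 5.68 CPM in hypoxia, 6.24 to 6.76 CPM in control) and H2afx do not overlap between the groups, and H1f0, also called, does.

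**Figure D5:**
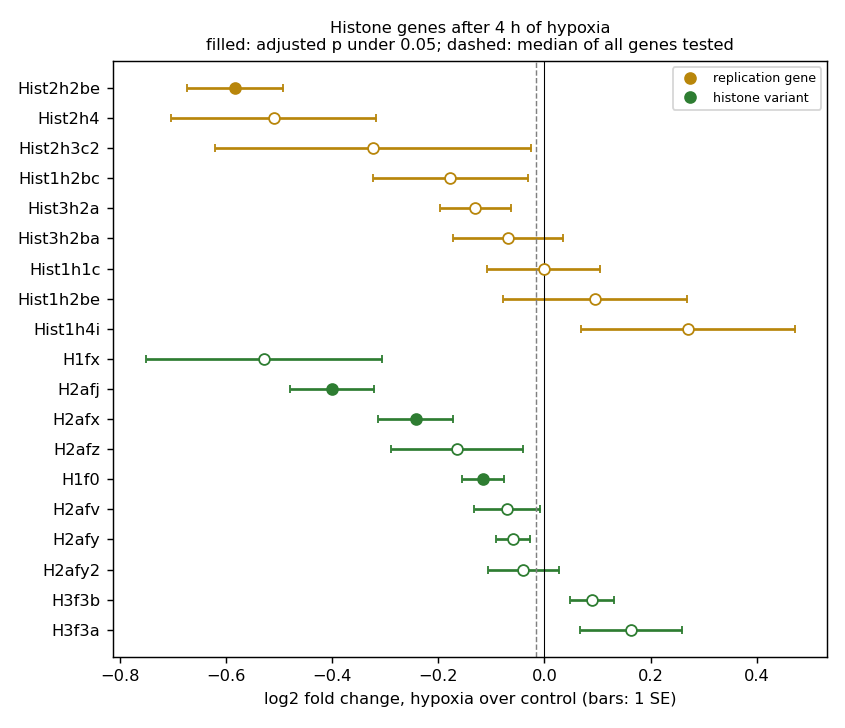
Log2 fold change of hypoxia over control (horizontal) for the 19 tested members with bars of 1 SE, filled where the adjusted p was under 0.05, and the median of all genes tested (-0.02) as a dashed line. Filled points are Hist2h2be (-0.58), H2afj (-0.40), H2afx (-0.24) and H1f0 (-0.12), and 4 of the 19 genes lie above 0.

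The factors that form and remove histone mRNA ends were read from a list of 33 genes, all tested. In it 4 genes were higher and 4 were lower in hypoxia, beside 10.2% and 12.8% of all genes, with a median log2 fold change of -0.06. Slbp, which binds the stem-loop, had 27.6, 28.1, 26.8, 27.3 and 30.1 CPM in hypoxia libraries 1 to 5, against 19.2 CPM in the lowest, 21.3 CPM at the median and 23.9 CPM in the highest control. It was the member of this list with the smallest p, at a log2 fold change of 0.39 (SE 0.06, edgeR adjusted p = 0.000116), every hypoxia library lay above every control, and the call held in all 18 alternatives. The other higher genes were Pcf11, Lsm11 and Tut4. Pcf11, a factor of ordinary cleavage and polyadenylation and of transcription termination, gave 0.19 (edgeR adjusted p = 0.00701). Lsm11, a subunit of the U7 particle that pairs with replication histone pre-mRNA, gave 0.11 (adjusted p = 0.0339). Over all libraries Lsm11 averaged 502 CPM, against 10.4 CPM for Lsm10 of the same list. Exon overlap was not examined for list genes, so whether all reads of the Lsm11 row belong to it was not tested. Tut4, a terminal uridylyltransferase, gave 0.16 (adjusted p = 0.0381). Lsm11 lost its call without any one of hypoxia 2 to 5 (adjusted p up to 0.0849), and Tut4 without any one of control 3 to 5 or hypoxia 1 to 4 (up to 0.0956). Both lost it with library totals alone, and Lsm11 also with no filter on low counts (0.0738) and with the replicate block (0.0581). The number of higher genes in the list was 2 without hypoxia 2, 3 or 4.

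The lower genes of this list act in ordinary cleavage and polyadenylation or at the cap. Cpsf6, a subunit of cleavage factor I, averaged 134 ± 14.3 CPM in hypoxia and 176 ± 8.72 CPM in control (SD, n = 5 and 6), a log2 fold change of -0.40 (edgeR adjusted p = 0.00017). Cpsf4 gave -0.29 (adjusted p = 0.00158), the cap-binding Ncbp2 gave -0.16 (adjusted p = 0.00259) and Fip1l1 gave -0.14 (adjusted p = 0.0131, and 0.0540 with no filter on low counts). Npat, the coactivator of replication histone transcription, averaged 26.5 ± 1.38 CPM in hypoxia and 27.6 ± 1.58 CPM in control (edgeR adjusted p = 0.479, n = 5 and 6). Casp8ap2, which encodes the FLASH protein of histone pre-mRNA cleavage, averaged 20.3 ± 2.25 CPM in hypoxia and 20.4 ± 2.02 CPM in control (edgeR adjusted p = 0.984, n = 5 and 6).

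Histone chaperones and exchange factors were read from a list of 33 genes, of which 2 were higher and 4 lower, beside 10.2% and 12.8% of all genes, with a median log2 fold change of 0.02. Supt6, a chaperone of transcription elongation, was higher at 0.17 (edgeR adjusted p = 0.00175), and so was Ubn1, a subunit of the HIRA complex that deposits H3.3, at 0.19 (adjusted p = 0.00664). The lower genes were Nap1l3 at -0.23 (adjusted p = 0.00783), Npm3 at -0.36 (adjusted p = 0.00854), Nap1l5 at -0.16 (adjusted p = 0.0410) and Set at -0.13 (adjusted p = 0.0493). Nap1l5 and Set lost their calls in most of the analyses that left out 1 library: without any one of control 1 to 5 or hypoxia 1 to 3, and for Set also without control 6, with adjusted p up to 0.125. The number of lower chaperone genes was then 2 without any one of control 1, 2, 3 or 5 or hypoxia 1 to 3, and the number of higher ones was 4 without control 1.

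Replication histone genes are normally expressed in S phase, so cell cycle genes are set beside them. Of 35 cell cycle and S phase genes, all tested, 6 were lower in hypoxia and 0 were higher, beside 12.8% and 10.2% of all genes, with a median log2 fold change of -0.11. At an unadjusted p under 0.05, 12 were lower and 1 was higher, beside 19.5% and 15.4% of all genes. The number lower by adjusted p was 3 without control 2, hypoxia 1 or hypoxia 2. The S phase enzyme Tk1, thymidine kinase, averaged 3.299 ± 0.230 CPM in hypoxia and 4.76 ± 0.362 CPM in control (SD, n = 5 and 6), a log2 fold change of -0.53 (SE 0.09, edgeR adjusted p = 0.000395), with no overlap. Ccne2, a cyclin of S phase entry, fell by 0.34 on the log2 scale (adjusted p = 0.0126), Uhrf1, which copies DNA methylation at the replication fork, by 0.29 (adjusted p = 0.0164), Ccna2 by 0.31 (adjusted p = 0.0219), the helicase subunit Mcm7 by 0.28 (adjusted p = 0.0239) and Birc5 by 0.32 (adjusted p = 0.0474). Ccna2 lost its call without any one of control 2, control 4, hypoxia 1, hypoxia 2 or hypoxia 5 (adjusted p up to 0.0636), Mcm7 without control 2, hypoxia 1 or hypoxia 2 (up to 0.0718), and Birc5 without any one of control 1 to 5 or hypoxia 1 to 4 (up to 0.115). Uhrf1 lost its call with the replicate block (edgeR adjusted p = 0.0502). Rrm2 (11.2 ± 0.733 CPM in hypoxia, 13.2 ± 1.76 CPM in control), Mki67 (29.99 ± 2.36 CPM in hypoxia, 34.6 ± 5.25 CPM in control) and Top2a (37.8 ± 4.03 CPM in hypoxia, 40.5 ± 4.97 CPM in control) did not pass, at edgeR adjusted p of 0.0653, 0.114 and 0.463.

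The summed level of the 35 cell cycle genes ranged over 290 to 344 CPM in hypoxia and 322 to 382 CPM in control. Summed markers of the oligodendrocyte lineage ranged over 112 to 143 CPM in hypoxia and 129 to 179 CPM in control. All 10 had counts, but Mag averaged 0.0645 CPM over all libraries, below the limit that a count of 0 allows. Of the 9 tested, 3 were lower (Mog, Olig1 and Olig2) and 0 higher, beside 12.8% lower and 10.2% higher of all genes tested. The Olig2 call was lost without any one of 7 libraries (control 1, 2 or 4, or hypoxia 1, 2, 4 or 5; adjusted p up to 0.122). Single markers of other cell types were called as well, in lists whose members went both ways. Log2 fold changes were above 0 in 6 and below 0 in 4 astrocyte markers, with a median of 0.03. They were above and below 0 in 3 and 6 interneuron markers and in 8 and 4 excitatory neuron markers. Among tested endothelial and mural markers they were above and below 0 in 3 and 3, and among fibroblast markers in 3 and 4. In the astrocyte list Aqp4 (-0.20, edgeR adjusted p = 0.0282) and Fabp7 (-0.20, adjusted p = 0.0477) were lower, but Aqp4 lost its call without any one of control 2 to 4 or hypoxia 1, 2 or 4 (adjusted p up to 0.0881) and Fabp7 without any one of control 1 to 5 or hypoxia 1, 2, 4 or 5 (up to 0.129). In the interneuron list Dlx1 was lower (-0.28, adjusted p = 0.00396) and Lhx6 higher (0.14, adjusted p = 0.0341), and in the excitatory neuron list Tbr1 (0.18) and Neurod6 (0.13) were higher and Bhlhe22 (-0.19) lower. Lhx6 lost its call without control 6 or any one of hypoxia 1 to 4 (adjusted p up to 0.0771), Neurod6 without hypoxia 4 (0.0537), and Bhlhe22 without control 4, control 6, hypoxia 1 or hypoxia 2 (up to 0.0777). The mural cell gene Pdgfrb was higher (0.56, adjusted p = 0.000395), as was Fn1 of the fibroblast list (0.39, adjusted p = 0.0106). The cell cycle and oligodendrocyte sums were lower on average in hypoxia, as were Hist2h2be, H2afj, H2afx and H1f0, and their part in these results was not tested. In RNA of a whole culture, fewer cells of a type and less RNA per cell cannot be told apart.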

How the data were processed

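The authors deposited whole-number read counts per Ensembl gene ID, not normalized, in 1 table per library. The submitters' processing notes name build mm10 and, among tools, Subread 1.5.1, featureCounts, STAR 2.5.2b, FastQC 0.11.5 and DESeq2. Annotation, strand setting and treatment of multiply matching reads were not given in the sources used here. Per the file headers, the authors' deposited tables of their own comparison hold a log2 fold change, p-values and a normalized signal per library. This signal was not used beyond a check that it equals the count over 1 size factor per library. CPM, fits and sums here were made from the counts.

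Genes with at least 10 counts in at least 5 libraries (16319) were fitted with edgeR 4.0.16 in R 4.3.3 (TMM, quasi-likelihood F test, 2-sided, no covariate), with Benjamini-Hochberg adjustment over all of them and calls at 0.05. The SE is the size of the log2 fold change over the square root of F. Groups came from the sample titles. Alternatives were the filterByExpr filter, no filter, median-ratio size factors, library totals alone, robust fitting, a replicate block, DESeq2 1.42.0 and leaving out each library. On simulated counts for this comparison over 16319 genes, 90 of 100 genes changed by 1 on the log2 scale and 78 of 100 changed by 0.5 were recovered, with 11 false calls. The changed genes were drawn at random from all of these genes, so the shares do not give the recovery for genes of low count. Hist2h3c2 (239 counts) had an SE of 0.30, and Hist2h4 (341 counts) was not called at a log2 fold change of -0.51.

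Symbols, coordinates, exon lengths and sequences came from GENCODE M21 (GRCm38), matched by gene ID. Zcchc6 and Zcchc11 of the list were matched as Tut7 and Tut4 by RefSeq synonyms. Members and gene lists were chosen with earlier results of these data known. The text names all variants, the called and the most abundant replication genes, per list up to 5 called genes with the smallest p, and Slbp, Npat, Casp8ap2, Lsm11, Mki67, Top2a and Rrm2; other genes were named after their values were seen.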

Additional observations from a re-analysis of the deposited data

Results flagged for a closer look

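Of 38 groups of libraries examined (19 tested members in hypoxia and in control), 4 held a library that stood apart from the rest of its group by Dixon's criterion, which chance meets in about 1 in 20 groups. In Hist3h2ba, hypoxia 5 had 11.9 CPM, against 9.94 to 10.4 CPM in the other hypoxia libraries. In Hist3h2a, control 1 had 25.6 CPM, against 21.6 to 22.9 CPM in the other controls. In Hist1h2bc, control 1 had 9.52 CPM, against 5.29 to 6.46 CPM in the others. In H3f3a, control 1 was lowest with 6.53 CPM, against 9.16 to 10.4 CPM in the others. Control 1 is the library with the fewest counts, 16619493.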

How the results depend on the processing

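Hist2h2be (-0.62 to -0.51) and H2afj (-0.45 to -0.35) stayed lower in all 18 alternatives, with edgeR or DESeq2 adjusted p up to 0.00207 and 0.00932. With no filter on low counts, 1 replication gene was called higher, Hist1h4k with 6 counts in hypoxia and 0 in control. Leaving out each library in turn gave 1 to 2 lower replication genes and 1 to 3 lower variants, the 1 without control 4 or hypoxia 4. Reversed values were those of Hist1h1c (0.0066 with no filter, 0.0099 with median-ratio size factors, 0.011 with DESeq2, and -0.061 to 0.085 with a library left out), Hist3h2ba (-0.13 to 0.0083, the highest without control 5), Hist1h2be (-0.00029 without hypoxia 2, to 0.26) and H2afy2 (-0.088 to 0.0013, the highest without hypoxia 1); none of these was called. Over all genes, leaving out a library gave 1307 to 1837 higher and 1622 to 2197 lower; the share of higher among all calls was 44.4%, against 38.4% with library totals alone and 51.3% with DESeq2. Whether equal numbers pair the libraries is settled neither by the labels nor by correlation. Deviations of hypoxia and control with the same number correlated at -0.23, 0.18, -0.08, -0.12 and 0.33. Hypoxia 2 and 5 correlated best with the control of their own number, and hypoxia 1, 3 and 4 with another control. With the replicate block, 2 replication genes were lower (Hist2h4 joined at an adjusted p of 0.0240) among 1306 higher and 1648 lower genes. Fip1l1, Uhrf1 and Lsm11 were then no longer called (edgeR adjusted p 0.0628, 0.0502 and 0.0581). The block also lost the calls of Nap1l5 (0.0625), Set (0.133), Neurod6 (0.0693), Bhlhe22 (0.0507) and Lhx6 (0.0995). The summed replication level in hypoxia over control was 0.908. Depth limits the 59 untested genes, which had at most 42 counts each.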
